A study of Mus musculus with 4 samples.

Results

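The genes described here are 34 genes of the extracellular matrix and of the fibroblasts that make it: collagens, small proteoglycans, matrix glycoproteins, matrix proteases and their inhibitors, the TGF-β ligands and a few fibroblast markers. They were taken by gene symbol, with the older symbol Ctgf accepted for Ccn2, from every probe set annotated to exactly 1 gene. In all, 32 of the 34 had at least 1 such probe set, 48 probe sets out of 12422 in the series. For Spp1 and Fbn1 no probe set could be taken by that rule, and they were not analysed here. A filter on the mean signal over all arrays, at 350.6, kept 34 of the 48 probe sets, for 27 genes.

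The samples were 4 Affymetrix arrays of total RNA from mouse ventricle at baseline, without pressure overload. A pair came from mice lacking ERRα (gene Esrra; labelled ERRa ko) and a pair from wild-type mice (ERRa wt). The labels give no age, sex, strain or deleted exon, and do not say whether RNA of several mice was pooled or whether the samples of 1 genotype came from separate mice, so the p-values below cover only the spread from sample to sample, part or all of which may be technical. Each probe set has 1 scaled, linear signal per array. ERRα, a nuclear receptor with no known natural ligand, controls genes for mitochondria and fuel use, and the arrays were run to find how loss of it alters gene expression in the unstressed heart.

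Most of a heart's volume is cardiomyocytes, but its matrix is made largely by fibroblasts, which lie between the muscle cells. Fibrillar collagens (types I, III and V) form the tensile fibres, collagen IV forms the sheet of the basement membrane around each myocyte and capillary, and small leucine-rich proteoglycans bind the fibres and control their thickness. Matrix metalloproteinases cut these proteins, TIMPs inhibit the proteases, and TGF-β is the best known inducer of matrix genes in cardiac fibrosis.

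Collagens I and III and the small proteoglycans had higher signals in the knockout ventricles, by 1.20- to 1.72-fold for the strongest probe set of Col1a1, Col1a2, Col3a1, Bgn, Dcn and Lum, and both knockout arrays lay above both wild-type arrays for each of these 6 genes, as they did for 19.9% of all genes. The type V fibrillar chains, Col5a1 and Col5a2, overlapped. Col6a1 and the fibroblast receptor gene Pdgfra also lay higher without overlap, whereas basement membrane collagen IV had lower means, without overlap for Col4a2 only. Proteases, TIMPs, TGF-β ligands and matricellular genes that passed the filter overlapped between genotypes. None of the 34 member probe sets passed limma's test over all 7453 probe sets at an adjusted p of 0.05 (adjusted p from 0.694 to 0.995). By adjusted p, 0.0134% of all probe sets passed, namely 1, a probe set of Esrra. An unadjusted limma p under 0.05 was found for 2 member probe sets, for Col1a2 and Lum (5.88%), against 6.79% of all probe sets. An exact permutation test of 2 arrays against 2 cannot give a two-sided p below 0.333. All differences below are therefore values that did not pass.

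The labels were checked on Esrra, which gave 2688 and 2828 on the wild-type arrays and 83.6 and 55.2 on the knockout arrays for 1 probe set, and 8598 and 8039 against 922 and 1050.2 for the other. Across all probe sets the arrays correlated at 0.927 to 0.941 (Spearman; probe sets are not independent replicates). The highest value was between genotypes, for wild-type sample 2 with knockout sample 1, against 0.935 for the wild-type pair and 0.933 for the knockout pair. For β-actin, the 5' probe set divided by the 3' probe set, a sign of RNA integrity, was 0.966 and 0.909 on the wild-type arrays and 0.694 and 0.813 on the knockout arrays. For Gapdh the same ratio was nearer to level, 1.039 and 1.015 in wild type and 0.994 and 0.968 in knockout. The part of RNA integrity in the results below was not tested. In bulk tissue, fewer cells of a type and less RNA per cell cannot be told apart.

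**Figure D1:**
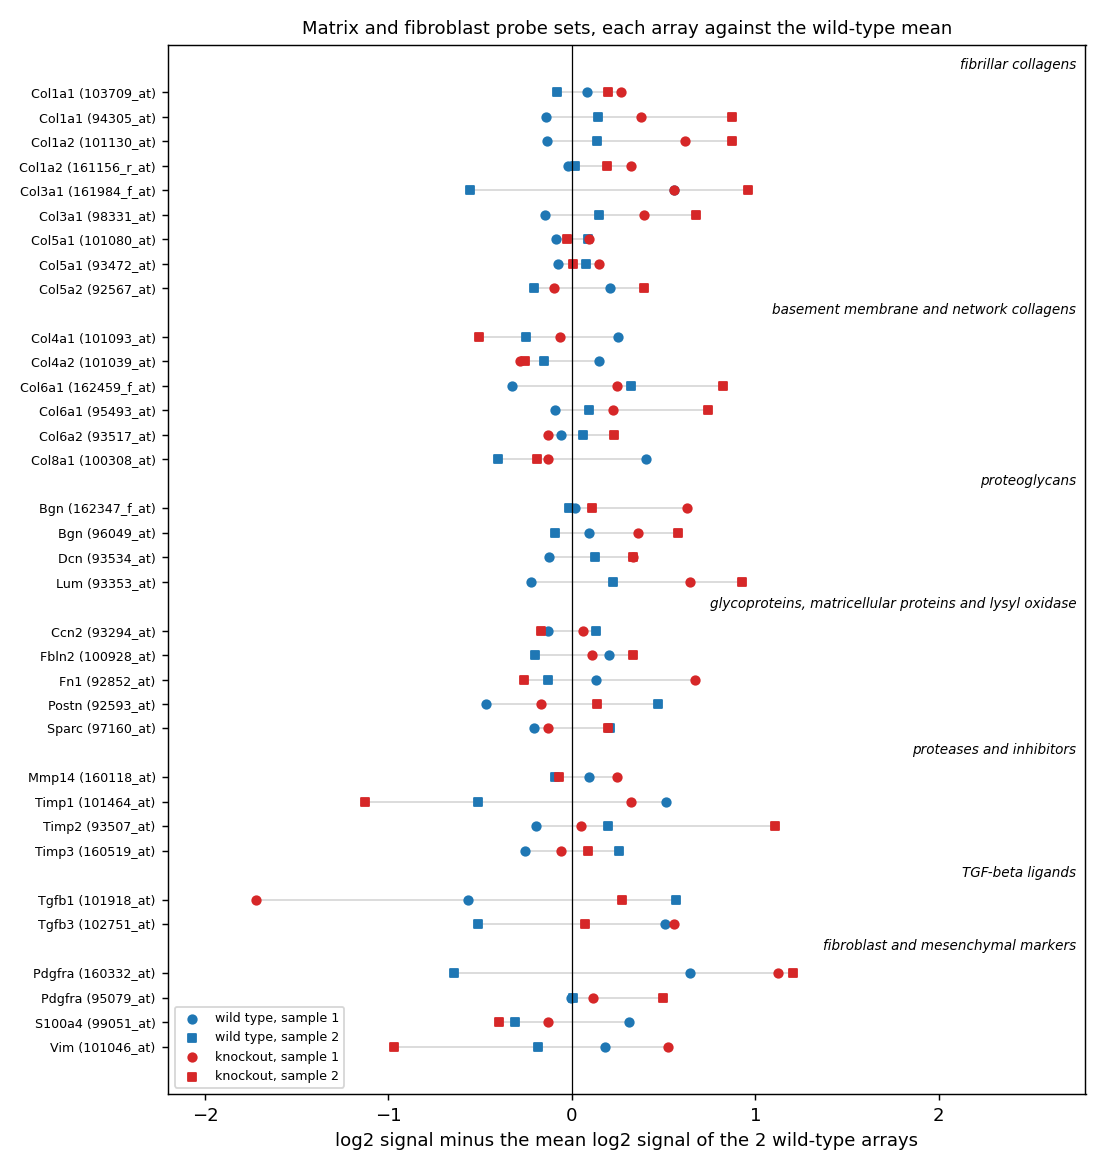
Each row is a member probe set that passed the filter, grouped by role, and each point an array (blue wild type, red knockout; circle sample 1, square sample 2). The x axis gives log2 signal minus the mean of the 2 wild-type arrays, with signals under 110 set to 110; red points lie to the right of blue for Col1a1, Col1a2, Lum, Dcn and Bgn, and to the left for Col4a2.

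Type I collagen, the main fibre of the cardiac interstitium, is a trimer of 2 chains of Col1a1 and 1 of Col1a2. Both genes had 2 probe sets, and all 4 lay higher in knockout without overlap, as did 20.7% of all probe sets. Col1a2 (probe set 101130_at) gave 2446 and 2958 on the wild-type arrays and 4120.1 and 4928 on the knockout arrays. The lower knockout value was above the higher wild-type value, and the log2 difference was 0.74 (SE 0.23, 1.68-fold; limma unadjusted p = 0.0264, adjusted p = 0.694). On the other, stronger Col1a2 probe set (161156_r_at), the wild-type arrays gave 7725 and 7939 and the knockout arrays 9781 and 8956. Here the difference was smaller, 0.26 on the log2 scale (SE 0.20, 1.20-fold; limma adjusted p = 0.836), and knockout sample 1 was the highest array, whereas on the former probe set it was knockout sample 2.

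Col1a1 behaved much the same. Its probe set 94305_at gave 3354 and 4080.4 in wild type and 4802 and 6781 in knockout (log2 0.63, SE 0.27, 1.54-fold; limma adjusted p = 0.748). Knockout sample 2 stood well above the other 3 arrays. The other probe set, 103709_at, gave 3656 and 3261 against 4153 and 3958, a log2 difference of 0.23 (SE 0.20). For both chains, then, the groups separated on both probe sets, but the probe sets put the fold difference at different sizes.

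Col3a1 encodes type III collagen, which co-assembles with type I in distensible tissue. Its strongest probe set (98331_at) gave 1672 and 2045 in wild type and 2428 and 2956 in knockout, without overlap (log2 0.53, SE 0.24, 1.45-fold; limma adjusted p = 0.752). A weaker one (161984_f_at) gave 487.1 and 225.4 against 487.0 and 645.8, where wild-type sample 1 and knockout sample 1 were level and the groups overlapped. The weakest (102990_at, 98.1 to 248.7) did not pass the filter.

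The type V chains, which nucleate the fibres and limit their diameter, showed little difference. Col5a1 gave 2267 and 2525 in wild type and 2646 and 2403 in knockout on its stronger probe set (log2 0.08, SE 0.21) and log2 0.03 (SE 0.21) on the other. Col5a2 gave 688.5 and 517.0 against 557.4 and 783.0 (log2 0.15, SE 0.29). The genotypes overlapped on all 3 probe sets. Over the 5 fibrillar genes the strongest probe sets had a median log2 difference of 0.26, with 5 higher, 3 of them without overlap. Of all genes, 51.5% had a higher mean in knockout and 19.9% were higher without overlap.

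**Figure D2:**
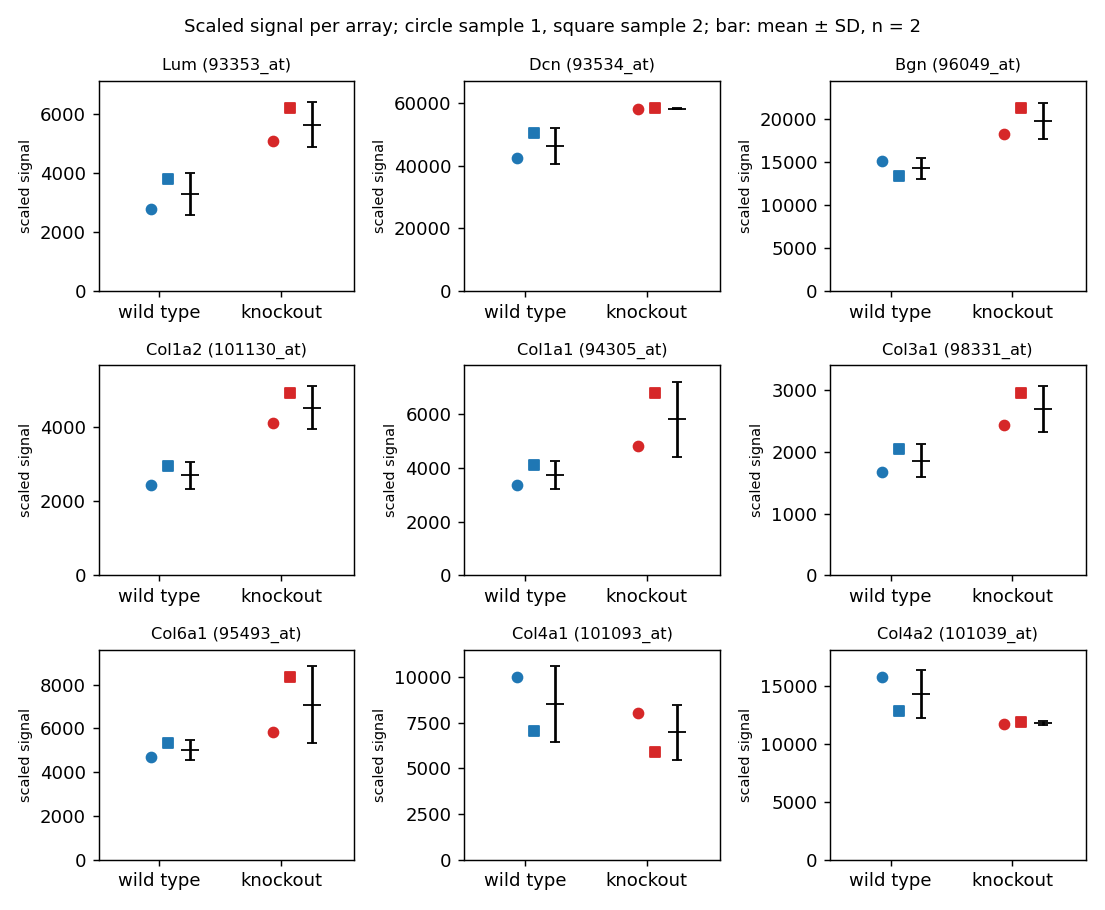
Scaled signal (linear axis from 0) on each array for 9 probe sets, for each gene that of lowest unadjusted limma p. For Col1a2 this is 101130_at (1.68-fold), not its strongest probe set, 161156_r_at (1.20-fold). Blue is wild type, red knockout, circle sample 1 and square sample 2, with the mean ± SD of each genotype (n = 2) beside the points. Both knockout arrays lie above both wild-type arrays for Lum, Dcn, Bgn, Col1a2, Col1a1, Col3a1 and Col6a1, and below them for Col4a2; Col4a1 overlaps.

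Small proteoglycans gave the most uniform picture, with each of the 3 genes higher without overlap on every probe set. By the strongest probe set, 19.9% of all genes were higher without overlap. Lumican (Lum, 93353_at), which binds and spaces collagen fibrils, gave 2791 and 3809 in wild type and 5104 and 6196 in knockout. Its groups were 3300.1 ± 720 and 5650.1 ± 772 (SD, n = 2 each), a log2 difference of 0.79 (SE 0.26, 1.72-fold; limma unadjusted p = 0.0334, adjusted p = 0.694). Among the strongest probe sets of the 27 genes this was the largest difference in either direction.

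Decorin (Dcn, 93534_at), which coats type I fibrils and binds TGF-β, gave 42239.9 and 50324 in wild type against 58034 and 58177 in knockout. Both knockout arrays were nearly equal and above the higher wild-type array (log2 0.33, SE 0.21, 1.26-fold; limma adjusted p = 0.816). Biglycan (Bgn), a close relative of decorin, gave 15150 and 13358 against 18295 and 21220 on its stronger probe set (96049_at; log2 0.47, SE 0.21, 1.39-fold; limma adjusted p = 0.762). Its weaker probe set gave 2943 and 2872 against 4497 and 3142 (log2 0.37, SE 0.26), and there knockout sample 2 lay only slightly above wild type.

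Collagen VI forms beaded filaments around cells. Col6a1 (95493_at) gave 4668 and 5313 in wild type and 5827 and 8344 in knockout, without overlap (log2 0.49, SE 0.27, 1.40-fold; limma adjusted p = 0.801). On its weaker probe set (162459_f_at) the values were 589.6 and 924.7 against 877.1 and 1306, so knockout sample 1 fell between the wild-type arrays. The partner chain Col6a2 did not separate, with 3202 and 3487 against 3059 and 3914 (log2 0.05, SE 0.23). A further chain, Col6a3, is not a member and also overlapped, with 3866 and 2633 against 3025 and 2819 (log2 -0.13, SE 0.27). Col8a1, a short-chain network collagen of vessels and valves, gave 1702 and 971.2 against 1176 and 1127 (log2 -0.16, SE 0.33), with wild-type sample 1 alone standing high.

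The chains of basement membrane collagen IV lay on the other side. Col4a2 (101039_at) gave 15737 and 12780 in wild type and 11646 and 11865 in knockout. It was the only 1 of the 34 member probe sets with both knockout arrays below both wild-type arrays (log2 -0.27, SE 0.22, 1.21-fold lower; limma adjusted p = 0.837). Col4a1 (101093_at) gave 10015 and 7063 against 8039 and 5924 (log2 -0.29, SE 0.29), where knockout sample 1 exceeded wild-type sample 2. Without each array in turn the log2 difference ran from -0.54 to -0.033 for Col4a1 and from -0.42 to -0.12 for Col4a2, nearest to 0 in both without wild-type sample 1. Wild-type sample 1 was the highest array for both chains. Markers of endothelial cells, which rest on collagen IV, were lower alongside: 5 of the 7 markers kept, 3 of them (Tie1, Cdh5 and Flt1) without overlap, against 17.5% of all genes, with summed signals of 19942 and 16813 on the wild-type arrays and 14737 and 14591 on the knockout arrays. A weaker Flt1 probe set overlapped and went the other way (log2 0.77). The part of these cells in the collagen IV values was not tested.

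Several members lie beside each other in the genome. With no other protein-coding gene between them in the RefSeq table, Dcn neighbours Lum, Col3a1 neighbours Col5a2, Col6a1 neighbours Col6a2 and Col4a1 neighbours Col4a2. Neighbours did not always have like values. Dcn and Lum were both higher without overlap (log2 0.33 and 0.79) and the Col4 genes were both lower on average (-0.29 and -0.27), whereas Col3a1 lay at 0.53 beside 0.15 for Col5a2, and Col6a1 at 0.49 beside 0.05 for Col6a2.

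Promoter windows in RefSeq (build GRCm38.p6, 250 bases before to 50 after each annotated start) were held for 24 of the 34 genes, in 28 windows. Ccn2, Col1a1, Col5a2, Dcn, Fn1, Lox, Lum, Mmp2, Tgfb3 and Thy1 had no window and were not searched. Spp1 and Fbn1, whose signals were not analysed, had windows. Windows are shown for Col1a2 and Col3a1, fibrillar chains whose strongest probe sets separated in the same direction, as the 250 bases before the start. Capitals mark the SMAD box CAGAC, read on either strand, a CCAAT box in Col1a2 and the letters TATAAA, the TATA box motif, in Col3a1. In Col3a1 these letters begin at -117 from the start.
Col1a2 promoter, chr6:4505368-4505617, plus strand: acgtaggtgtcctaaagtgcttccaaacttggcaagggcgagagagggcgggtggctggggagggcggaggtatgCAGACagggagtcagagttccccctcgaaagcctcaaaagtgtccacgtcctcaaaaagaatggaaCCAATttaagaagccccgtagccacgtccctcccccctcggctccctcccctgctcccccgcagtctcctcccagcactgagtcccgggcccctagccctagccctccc
Col3a1 promoter, chr1:45311288-45311537, plus strand: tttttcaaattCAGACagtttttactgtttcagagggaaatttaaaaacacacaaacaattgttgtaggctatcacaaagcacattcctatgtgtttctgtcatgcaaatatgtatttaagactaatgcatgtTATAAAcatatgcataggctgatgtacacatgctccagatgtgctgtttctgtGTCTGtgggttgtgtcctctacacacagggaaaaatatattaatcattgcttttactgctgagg
Col4a1 (minus strand, start at 11312826) and Col4a2 (plus strand, start at 11312805) are annotated with starts that overlap by 22 bases. Beyond these bases the 2 genes read away from each other. In this annotation the 22 bases are the first transcribed bases of each gene, not a gap between the starts. They are shown because both collagen IV chains had a lower mean in knockout.
Col4a1 and Col4a2 starts, chr8:11312805-11312826, plus strand: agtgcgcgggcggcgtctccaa

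Over whole windows and both strands, AAGGTCA, the core that ERR proteins bind, matched 0 of the 28 member windows and 4.72% of all 32851 windows. None of those member windows belonged to Col1a1, Dcn or Lum, which lay higher in knockout without overlap. The extended TCAAGGTCA, which contains that core, matched 0 and 0.423%. CAGAC matched 15 of 28 (53.6%) against 49.6% of all, the CCAAT box 10 (35.7%) against 37.4%, and TATAAA 8 (28.6%, in 7 genes) against 13.6%. In these members TATAAA began from -211 (Spp1) to -26 (Postn) relative to the start. These are letter matches in short windows and say nothing of binding here.

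Glycoproteins and matricellular genes, which tune cell adhesion to the matrix, overlapped between the genotypes in all 5 genes kept. Fibronectin (Fn1), the provisional matrix that cells deposit before collagen, gave 1479 and 1237 in wild type and 2158 and 1127 in knockout (log2 0.20, SE 0.38). Knockout sample 1 alone was high. Sparc, a collagen-binding matricellular protein, gave 3414 and 4545 against 3601 and 4509.7 (log2 0.03, SE 0.26). Periostin (Postn), a marker of activated fibroblasts, gave 675.2 and 1291 against 829.4 and 1027 (log2 -0.02, SE 0.38), both knockout arrays lying between the wild-type arrays. Ccn2, the connective tissue growth factor and a TGF-β target, gave 2621 and 3138 against 2987 and 2549.6 (log2 -0.06, SE 0.22), and Fbln2, fibulin-2, had a log2 difference of 0.22 (SE 0.25). Tenascin C (Tnc) did not pass the filter, with 10.3 to 220.4 over its 2 probe sets.

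Enzymes that cut or cross-link the matrix were mostly weak on these arrays. Mmp14, the membrane-bound activator of Mmp2, gave 2618 and 2306 in wild type and 2910.3 and 2337 in knockout (log2 0.09, SE 0.23). Mmp2, the gelatinase made by fibroblasts, gave 575.4 and 368.2 against 332.5 and 41.4 on 1 probe set and 154.5 and 183.3 against 97.2 and 95.7 on the other. Lysyl oxidase (Lox), which cross-links collagen and elastin, gave 244.0 and 143.3 against 36.6 and 70.1, and 433.5 and 53.6 against 109.7 and 162.4. Both Mmp2 probe sets and the former Lox probe set thus had lower signals on both knockout arrays, but all 4 were under the filter and were not tested. Among probe sets that passed the filter, 16.7% were lower without overlap, and the share under it was not counted. For the latter Mmp2 and the former Lox probe set, both knockout signals were under the floor of 110. A Timp2 probe set under the filter went the other way, with 23.4 and 24.9 against 35.5 and 142.2.

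The inhibitors differed more between the arrays of at least 1 genotype than between genotypes. For Timp2 this held in knockout but not in wild type. Timp1 gave 2580.0 and 1266 in wild type and 2260 and 825.4 in knockout (log2 -0.40, SE 0.62), with sample 1 the higher in both. Timp2 gave 925.5 and 1217 against 1099 and 2288 (log2 0.58, SE 0.42), and only knockout sample 2 was high. Timp3, which stays bound to the matrix, gave 7907 and 11265 against 9052 and 10048 (log2 0.02, SE 0.26).

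Among the TGF-β ligands, Tgfb1 had the largest SE of a log2 difference of the 34 member probe sets that passed the filter, with 407.4 and 892.2 in wild type and 182.6 and 729.3 in knockout (log2 -0.72, SE 0.79). Tgfb3 gave 2804 and 1384 against 2902 and 2073 (log2 0.32, SE 0.42). Both overlapped. A weaker Tgfb3 probe set, under the filter, gave 223.4 and 153.2 against 92.3 and 59.8, lower on both knockout arrays but there under the floor of 110. Tgfb2 gave 302.5 and 300.9 against 291.6 and 303.6, nearly level, but lay under the filter.

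Of the cell markers, Pdgfra, the PDGF receptor that marks cardiac fibroblasts, gave 3653 and 3682 in wild type and 3971 and 5177 in knockout on its strongest probe set (95079_at; log2 0.31, SE 0.23, 1.24-fold; limma adjusted p = 0.829). A weaker one (160332_at) gave 612.1 and 251.2 against 855.5 and 902.7 (log2 1.16, SE 0.47; limma adjusted p = 0.744). The genotypes did not overlap on either, but on the weaker probe set wild-type sample 2 stood low, and the log2 difference was 0.52 without it and 1.81 without wild-type sample 1. Vimentin (Vim), the intermediate filament of mesenchymal cells, gave 488.6 and 379.6 against 618.9 and 220.1 (log2 -0.22, SE 0.54), and S100a4 gave 677.8 and 440.2 against 499.5 and 415.5 (log2 -0.26, SE 0.30). Thy1, with 162.9 and 454.3 against 159.5 and 559.6, was under the filter.

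**Figure D3:**
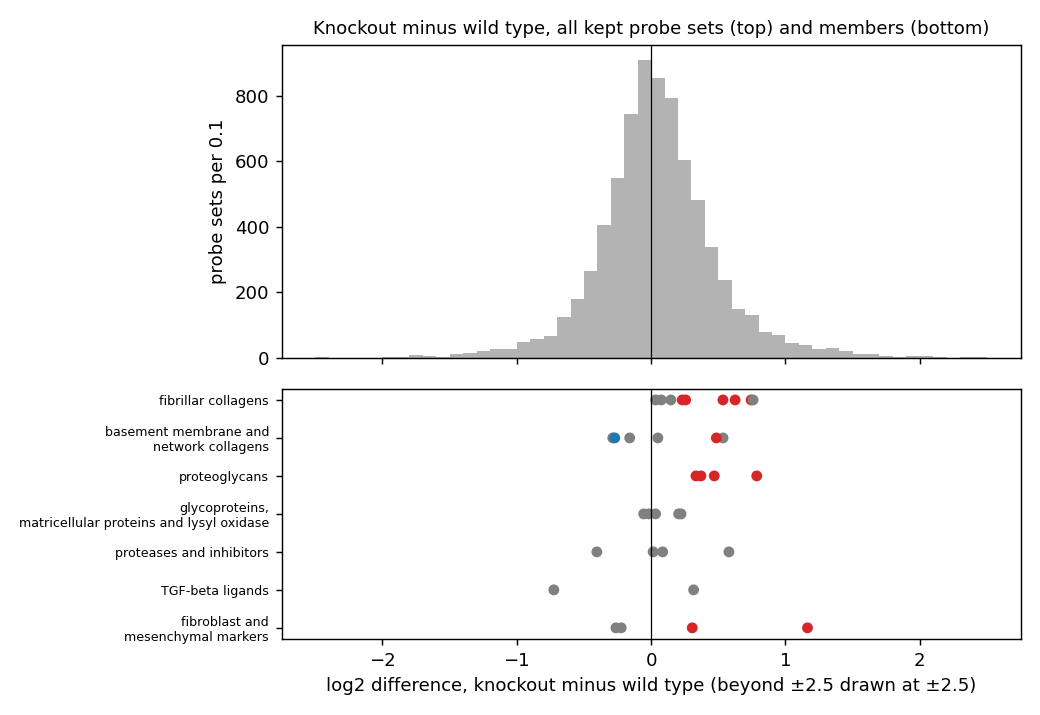
Top: log2 difference, knockout minus wild type, for all 7453 probe sets that passed the filter. Bottom: the 34 member probe sets by role, red where both knockout arrays lay above both wild-type arrays (12), blue where both lay below (1) and grey where genotypes overlapped (21).

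Counted over probe sets, 12 of 34 members (35.3%) were higher in knockout without overlap, against 20.7% of all 7453 probe sets, and 1 (2.94%) was lower, against 16.7%. At least 1.5-fold higher without overlap were 4 (11.8%) against 6.84% of all, and 2 had an unadjusted limma p under 0.05 (5.88%), below the 6.79% of all probe sets. Probe sets of 1 gene share their target and are not independent. With the strongest probe set per gene, 8 of 27 genes were higher without overlap and 1 lower, against 19.9% and 17.5% of 5653 genes, and the median log2 difference was 0.09 against 0.01. The 7 genes with several kept probe sets had the same direction of difference on all of them. By role, the medians were 0.26 for the 5 fibrillar collagens, 0.47 for the 3 proteoglycans, 0.03 for the 5 glycoprotein and matricellular genes, 0.05 for the 4 proteases and inhibitors, -0.16 for the 5 other collagens, -0.20 for the 2 TGF-β ligands and -0.22 for the 3 fibroblast and mesenchymal markers. These counts describe genes chosen with earlier results of these data known, and they are no test.

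Array by array, the 27 genes were highest on knockout sample 2 in 11 cases, on knockout sample 1 in 6, and on either wild-type array in 5 each. They were lowest on wild-type sample 1 in 12 cases, against 1499 of all 5653 genes. Of all 5653 genes, 26.9% were highest on knockout sample 2. Of the 10 member genes of collagens I, III, V and VI and the proteoglycans, 8 were highest on knockout sample 2 and 7 lowest on wild-type sample 1. This grouping was made after the values were seen and leaves out Col6a3, not a member, at log2 -0.13. The median log2 difference of the 10 genes was 0.40, and without each array in turn it ran from 0.33 to 0.48. The median of the 27 genes, 0.09 with all arrays, was 0.19 without knockout sample 1, 0.21 without wild-type sample 1, and 0.11 without knockout sample 2 or without wild-type sample 2.

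**Figure D4:**
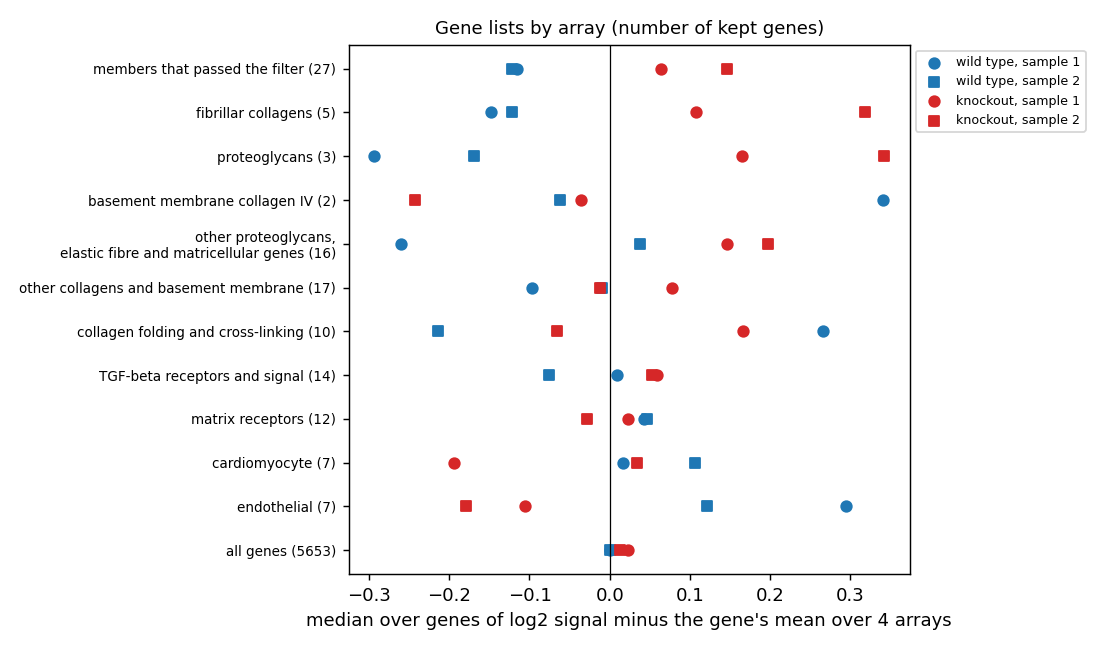
Median over the genes of each list (number of kept genes in brackets) of log2 signal minus the gene's mean over the 4 arrays; blue wild type, red knockout, circle sample 1, square sample 2. Both knockout points lie to the right of both wild-type points for the members, their fibrillar collagens and proteoglycans, the further proteoglycan list and the TGF-β list. The same holds by a small margin for all genes (0.00017 and 0.00015 in wild type, 0.023 and 0.012 in knockout). They lie to the left for endothelial markers and matrix receptors.

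Other genes of the pathway were taken from lists drawn up by function, with earlier results of these data known, so their counts are descriptions. Of 16 kept genes for further proteoglycans, elastic fibres and matricellular proteins, 13 had a higher mean in knockout, against 51.5% of all genes. Both knockout arrays lay above both wild-type arrays for 7 and below them for 0, against 19.9% and 17.5% of all genes, and the median log2 difference was 0.31 against 0.01 over all genes. Mfap4, an elastic fibre protein, gave 410.4 and 345.2 in wild type and 767.4 and 634.0 in knockout (log2 0.89, SE 0.23; limma unadjusted p = 0.0139, adjusted p = 0.694); its other probe set lay under the filter and overlapped. Tgfbi, a TGF-β-induced adhesion protein, gave 683.6 and 676.3 against 1091 and 993.5 (log2 0.61, SE 0.20; limma adjusted p = 0.694). No gene of this list passed.

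Further collagens, laminins and basement membrane genes were split, with 12 of 17 higher, 5 without overlap, and 2 lower without overlap, against 19.9% and 17.5% of all genes (median 0.16). Agrin (Agrn) gave 1303 and 1568 against 2063 and 1962 (log2 0.49), but -0.49 on its other probe set, and Col12a1, a fibril-associated collagen, had a log2 difference of 0.99 from low signals of 181.0 and 341.0. Among 10 genes for collagen folding, processing and cross-linking, 6 were higher and 4 lower (median 0.09). Pcolce, which enhances the cutting of procollagen into collagen, gave 6361 and 5560.4 in wild type and 8752 and 8111 in knockout (log2 0.50, SE 0.21; limma adjusted p = 0.744). P4ha2, a prolyl hydroxylase subunit, gave 4522 and 3561 against 2988 and 2664 (log2 -0.51, SE 0.23; limma adjusted p = 0.762). A weaker P4ha2 probe set had log2 -0.49, so that Pcolce and P4ha2 lay on opposite sides, each without overlap.

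TGF-β receptors and signalling genes had a median of 0.10 over 14 genes, 5 higher and 1 lower without overlap, against 19.9% and 17.5% of all genes; Ltbp3, which tethers latent TGF-β to the matrix, gave 1167 and 1007 against 1833 and 1343 (log2 0.53), and Tgfb1i1 (Hic-5) had a log2 difference of 0.33. Further proteases and inhibitors had a median of 0.11 over 10 genes, with the plasminogen activator Plat at 1729 and 2059 against 1257 and 1406 (log2 -0.50) and plasminogen (Plg) at log2 0.72 on a probe set of low signal. A Plg probe set under the filter gave 390.5 and 192.8 against 161.9 and 67.2, the opposite direction. Matrix receptors had a median of -0.03 over 12 genes, 5 higher and 7 lower. Itga3, at 0.37, was the only 1 of them higher without overlap, against 19.9% of all genes. Sdc4 (-0.26) and Itgb1 (-0.09), named after their values were seen, were lower without overlap, against 17.5%, and Sdc1, at 0.55, overlapped. Of 7 further fibroblast genes, 5 had a higher mean in knockout, 2 of them without overlap, against 19.9% of all genes (median 0.09). Islr gave 2290.1 and 2329 against 3511 and 3934 (log2 0.69, SE 0.20; limma adjusted p = 0.694) and Gsn, gelsolin, 27126 and 31027 against 38829 and 45736 (log2 0.54), whereas Tcf21, Pdgfrb and Dpt lay at -0.09, 0.03 and -0.03. In none of these lists did a gene pass.

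Markers of other cell types were measured on the same arrays. Of all genes, 51.5% had a higher mean in knockout, 19.9% were higher without overlap and 17.5% lower without overlap. Acta2, the actin of smooth muscle and of myofibroblasts, gave 4135 and 2909 in wild type and 18753 and 10916 in knockout (log2 2.04, SE 0.36; limma adjusted p = 0.656). The other 5 smooth muscle markers kept, Des, Smtn, Mylk, Tagln and Myh11, lay between -0.28 and 0.17. The atrial markers Myl4, Myl7 and Nppa were all higher without overlap, with a median of 0.79 and summed signals of 10604 and 8805 on the wild-type arrays against 17249 and 16639 on the knockout arrays. Cardiomyocyte markers had a median of -0.11 over 7 genes, 6 lower and 2 without overlap (Tnnt2 at -0.20 and Tnni3 at -0.16), summing to 850432 and 856464 against 716657 and 863443. Immune markers had a median of 0.25 over 4 genes, all higher, with Cd14 at 0.26 and Lyz2 at 0.34, 2 (Cd14 and Csf1r) without overlap, summing to 9866 and 9301 against 12088 and 11029. Of the adipocyte markers, Adipoq lay at log2 1.44 and Fabp4 at -0.02, and erythroid markers had a median of 0.08 over 3 genes, with Slc4a1 at -0.27 and Hba-a1 at 0.11. No probe set had a signal of 0 on any array. The part of these other cells in the matrix values was not tested.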

How the data were processed

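The deposited value table holds an intensity per probe set for 4 arrays (2 knockout, 2 wild type). It is linear and scaled by array: the mean without the top and bottom 2% was 1501 on each. The software and the genome build behind the deposited intensity values are not given in the sources used here, and the number of arrays limits the precision. Of 12422 probe sets (66 controls left out), 10833 had 1 gene symbol, 396 several and 1193 none; symbols matched RefSeq's GRCm38.p6 table, used for names, neighbours and promoters. Probe sets with a mean under the 40th percentile (350.6) were left out, leaving 7453. Signals under 110, the 20th percentile, were set to it before log2. The difference between genotypes was tested by limma (version 3.58.1, under R 4.3.3; lmFit, eBayes, Benjamini-Hochberg, threshold 0.05). Fold changes are on this floored scale. The fit was run on simulated arrays with independent normal noise and known differences, a check of the code and not of these data. Where a gene had several probe sets, that of highest mean signal stood for it in counts. Lists were described, not tested. Members, lists and the alternatives for them were chosen with earlier results of these data known; the CCAAT and TATA boxes and the group of 10 interstitial genes were added after values were seen. All members that passed the filter are named; of each other list, the 2 genes of lowest unadjusted p, with others named for contrast after their values were seen.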

Additional observations from a re-analysis of the deposited data

How the results depend on the processing

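No member probe set passed under any of the up to 12 alternatives run for it, and its lowest adjusted p over them was 0.467 (limma). Over all probe sets, 1 passed, against 0 with the floor at the 5th or the 40th percentile, 0 with no filter, 0 with the replicate block (the replicate number as a block) and 0 without any 1 array, and 2 with the filter at the 60th percentile or with the trend and robust prior. The median of the kept members, 0.09, was 0.20 with the filter at the 60th percentile, 0.043 after median scaling, and 0.11 to 0.21 without each array. The count of genes higher without overlap stayed at 8 in every alternative that kept all arrays, and was 12 to 13 with 3 arrays, where separation is easier. The 13 probe sets without overlap kept their direction in all alternatives, which separation itself largely fixes. Of the other 21, 16 turned sign somewhere: after median scaling Col5a1 (weaker probe set, -0.0094), Timp3 (-0.028) and Sparc (-0.010), after quantile normalization Col5a1 (-0.027), and Vim at the higher floor (0.093). Without each array the log2 differences ran from -0.56 to 0.25 for Col8a1, -0.97 to 0.52 for Vim, -0.055 to 0.12 and -0.0020 to 0.15 for Col5a1, -1.13 to 0.32 for Timp1, -1.72 to 0.27 for Tgfb1, -0.19 to 0.83 for Tgfb3, -0.072 to 0.24 for Mmp14, -0.24 to 0.27 for Timp3, -0.10 to 0.39 for Col5a2, -0.48 to 0.45 for Postn, -0.26 to 0.67 for Fn1, -0.19 to 0.075 for Ccn2, -0.13 to 0.23 for Col6a2, -0.17 to 0.24 for Sparc and -0.57 to 0.050 for S100a4. The labels do not say that same-numbered arrays are paired, and their deviations from the genotype means correlated at 0.01; the block changed no call of a member. The cause was not tested beyond the arrays left out. Signals near the floor, as for Mmp2, Lox, Tnc and Thy1, limit what can be said of those genes.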
